A study of Mus musculus with 22 samples.

Results

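The BCL2 family decides at the outer membrane of the mitochondrion whether a cell lives or dies. Pro-survival members (Bcl2, Bcl2l1, Bcl2l2, Mcl1) bind and hold back the effectors Bak1 and Bax, which otherwise open pores in that membrane and release cytochrome c to start the caspases. BH3-only members (Bcl2l11, Bid, Bad, Bik, Bmf) are the upstream sensors, and they act by binding pro-survival proteins or by engaging the effectors. Mouse embryonic stem cells are known to stand close to the threshold of apoptosis and to depend on pro-survival members, Mcl1 among them. The 10 genes named here, taken by their symbol, were described in poly(A)-selected RNA of the mouse embryonic stem cell line E14 after exposure to chromatin inhibitors. All 10 were among the 18487 genes of the table, and all 10 passed the filter on low values that 17275 genes passed (10 or more normalized counts in 2 or more libraries).

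The 22 libraries fell into 11 groups of 2, and every group was E14 cells without a genetic change named in the labels. The group labelled NC, whose treatment label names no compound, was the reference. The compounds were Bromosporine (a ligand of bromodomains), Valproate (a histone deacetylase inhibitor), CPTH2 and Garcinol (acetyltransferase inhibitors), Chaetocin (a lysine methyltransferase inhibitor), UNC0379 (directed at SETD8), MS023 (directed at type I arginine methyltransferases), DZNep (which blocks S-adenosylhomocysteine hydrolase), IOX1 (a broad inhibitor of 2-oxoglutarate oxygenases) and OICR, a label that gives no full name. Dose, exposure time and vehicle are not given in the sources used here, and nothing says whether the 2 libraries of a group came from separate cultures, so p-values measure the spread between these libraries, which may be technical. All 10 stem cell markers fixed for this check, Pou5f1, Sox2 and Nanog among them, were above 0 in every library, with a summed value between 209156 and 307233, while the 8 fibroblast markers summed to between 99 and 1938, with Postn, Dcn and Lum at 0 in at least 11 libraries. The values are normalized read counts that all libraries share as 1 distribution (median 409 in each), so the depth behind each value is unknown. In such bulk RNA, fewer cells of a kind and less RNA per cell cannot be told apart.

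In the NC libraries the family covered a wide range of levels. To compare genes, the NC value was divided by the length of the merged exons in kilobases (GENCODE M21, mm10). Mcl1 stood highest, with 3399 and 3268 normalized counts per kb in the 2 NC libraries, followed by the effector Bak1 with 1703 and 1956. Bid (373 and 381) and Bcl2l1 (319 and 352) came next, then Bad (mean 179.6) and Bcl2l2 (131 and 87.2). The levels of Bcl2l11 (58.2 and 47.5 per kb) and Bmf (55.0 and 27.2) overlapped between libraries, so their order is not settled. Bik (mean 7.23) and Bcl2 (mean 3.06) were lowest, and Bcl2, the gene that gave the family its name, had only 22 and 34 normalized counts in all. Values per kb of merged exons understate a gene that uses few of its annotated exons.

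**Figure D1:**
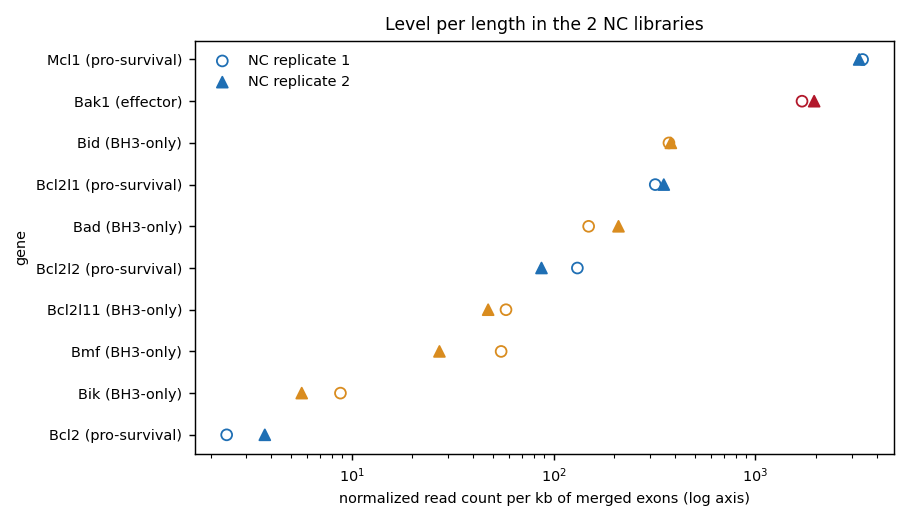
Normalized read count per kb of merged exons (log axis) of the 10 genes in NC replicate 1 (circles) and replicate 2 (triangles), coloured by role (blue pro-survival, red effector, orange BH3-only). Mcl1 (mean 3334) and Bak1 (mean 1829) lie above the other genes, and Bik (mean 7.23) and Bcl2 (mean 3.06) lie lowest.

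The question for each compound was which of the 10 genes differed from NC. It was put to 1 limma fit of all 22 libraries without a term for the replicate number. A call needs a fold change over 2 and a p under 0.05 after Benjamini-Hochberg adjustment over all tested genes. Of the 100 pairs of gene and compound, 1 was called, the fall of Bcl2l2 with DZNep. With DZNep this is 1 of 10 members, beside 11.4% of all tested genes. Without the limit on the fold, 3 of 10 members passed an adjusted p under 0.05 with DZNep (Bcl2l1 higher, Bcl2l2 and Bak1 lower), beside 23.6% of all genes, and 1 of 10 passed with Valproate (Bak1, lower), beside 10.3% of all genes. With Valproate 0 of 10 met the full rule by limma, beside 5.28% of all genes. An unadjusted p under 0.05 was found for 4 of 10 members with Valproate, beside 20 of the 59 pathway genes described below. The remaining 8 compounds had 0 members past an adjusted p under 0.05 by limma. Among them the unadjusted p was under 0.05 for 1 member with Bromosporine (Bak1) and 1 with OICR (Bik), and for 0 members with each of the other 6. No share of all tested genes is given for the unadjusted p, here or below. Counts at that level are therefore not read as results about the genes. The shares of all tested genes that were called, and that passed at any fold, were 3.34% and 5.4% with Bromosporine, 0.973% and 2.21% with MS023, 0.388% and 0.637% with OICR and 0.116% and 0.127% with IOX1. Both shares were 0.0174% with Chaetocin, 0.00579% with CPTH2, 0.00579% with Garcinol and 0% with UNC0379. Over the 11 groups together, the F test of the same fit passed an adjusted p under 0.05 for 3 of 10 members, Bcl2l1 (adjusted p 0.0437), Bcl2l2 (0.0291) and Bak1 (0.0307), beside 29.7% of all genes. The shares of members that passed were thus near those of all genes, and nothing about the family as a whole is read from them.

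**Figure D2:**
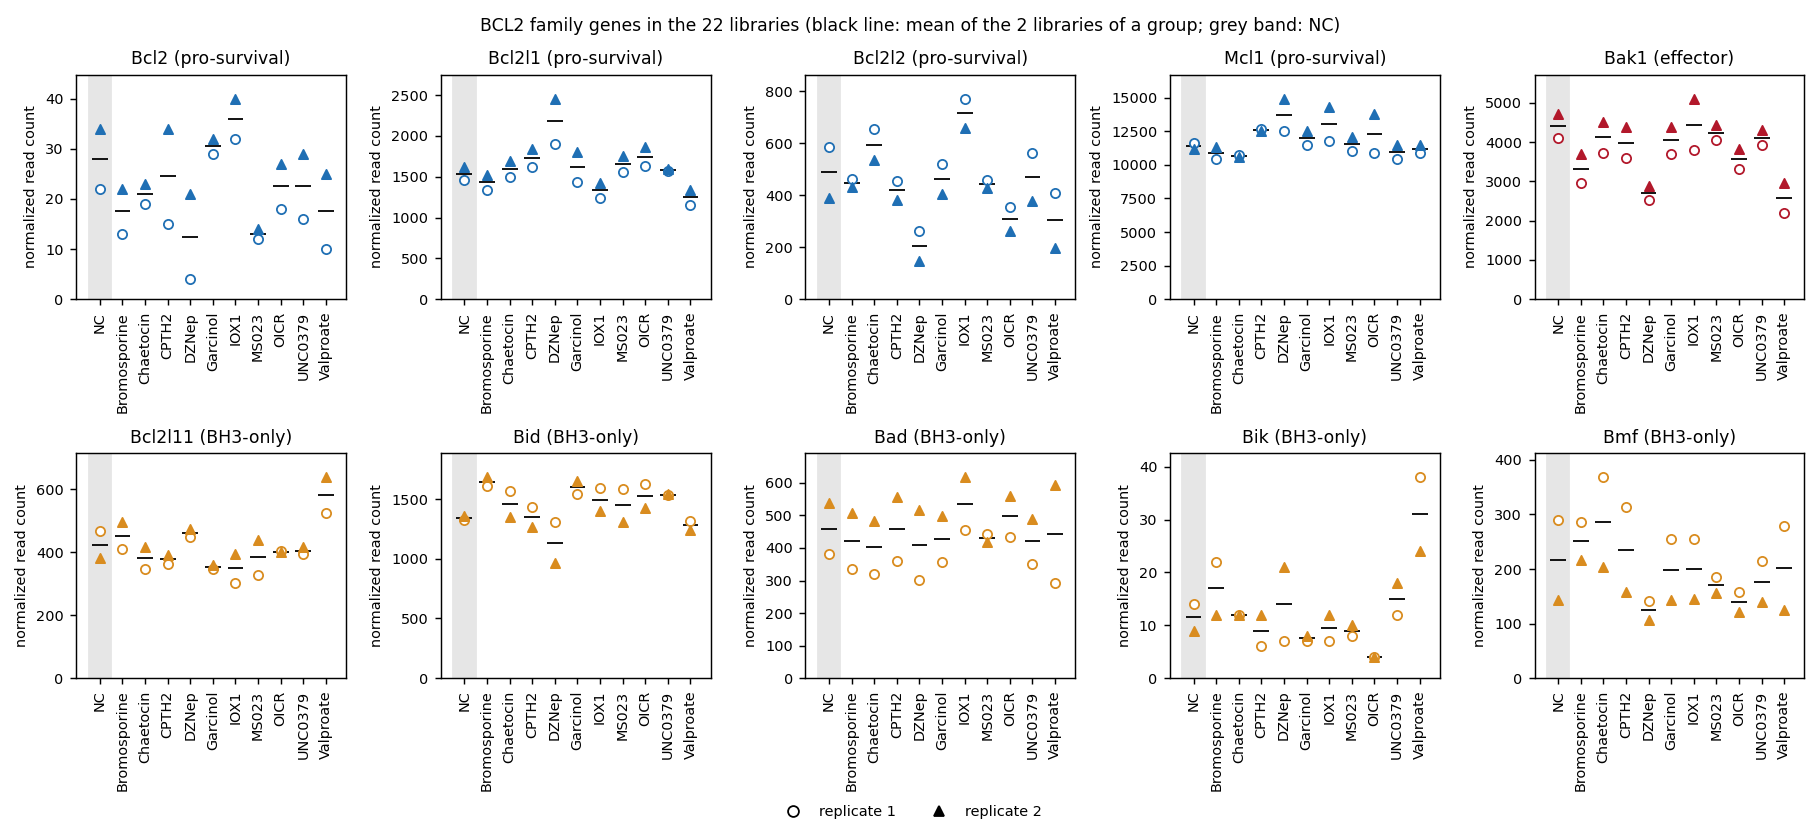
Normalized read count of each of the 10 genes in all 22 libraries, by group, with circles for replicate 1, triangles for replicate 2, a black line at the mean of the 2 and a grey band for NC. Bak1 is lowest with Valproate (2198 and 2950) and DZNep (2535 and 2894), and the mean of Bcl2l2 is lowest with DZNep (261 and 146).

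**Figure D3:**
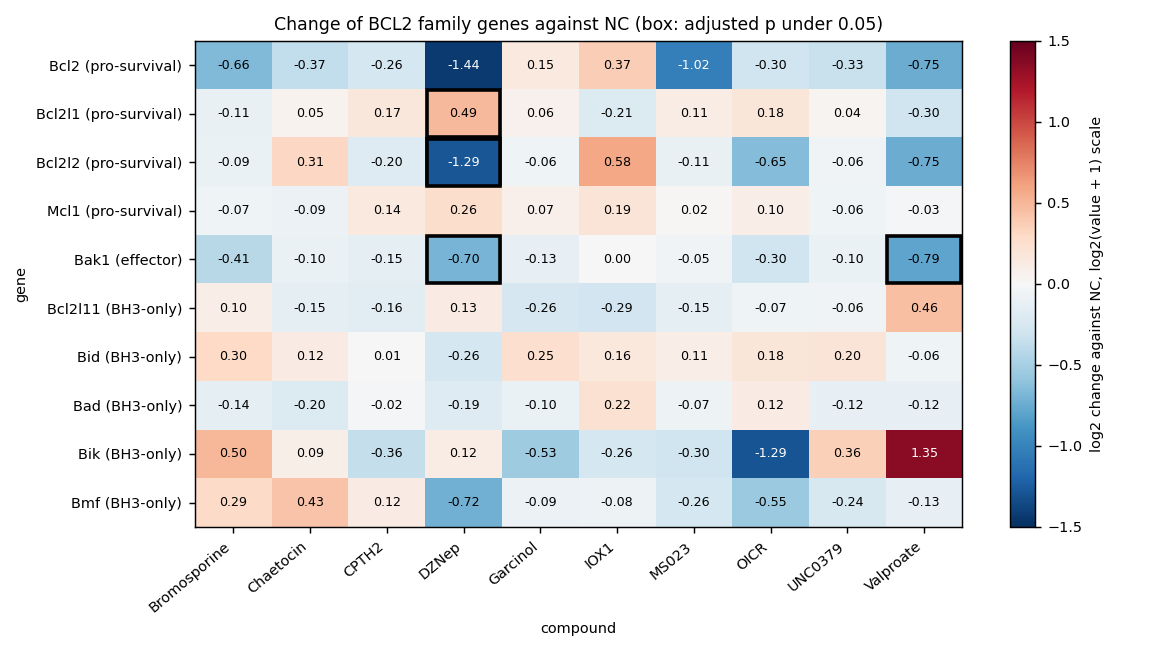
Log2 change of each gene (rows) with each compound (columns) against NC on the log2(value + 1) scale, blue for lower and red for higher, with a box where the adjusted p was under 0.05. The 4 boxes are Bcl2l1 (0.49), Bcl2l2 (-1.29) and Bak1 (-0.70) with DZNep and Bak1 (-0.79) with Valproate.

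Among the pro-survival genes, Bcl2l2, which encodes BCL-W, was the gene that was called. With DZNep its values were 261 and 146, against 586 and 389 in NC, so both DZNep libraries lay below both NC libraries. The log2 change was -1.29 (SE 0.35, 95% interval -2.03 to -0.54, adjusted p 0.0158 by limma), a level 2.44-fold lower. Within replicate number 1 the change was -1.16, and within number 2 it was -1.41. The limma adjusted p was 0.000305 with the replicate number as a block. In a fit restricted to DZNep and NC it was 0.124, and the call was lost. The log2 change fell under the 2-fold limit without DZNep replicate 2 (-0.87) and without NC replicate 1 (-0.99). It was -1.70 without DZNep replicate 1 and -1.58 without NC replicate 2. Leaving out 1 library unbalances the replicate numbers, between which Bcl2l2 itself differed (-0.44), so these values mix both differences. Both OICR libraries (354 and 262) lay below NC, both IOX1 libraries (771 and 658) lay above it, and Valproate (409 and 197) overlapped it. None of these passed the test, with log2 changes of -0.65 (95% interval -1.39 to 0.10), 0.58 (-0.17 to 1.32) and -0.75 (-1.49 to -0.00174) in that order. With the replicate number as a block, Bcl2l2 with Valproate had an adjusted p under 0.05 by limma. The remaining groups lay at 462 and 433 (Bromosporine), 653 and 534 (Chaetocin), 454 and 382 (CPTH2), 518 and 405 (Garcinol), 458 and 427 (MS023) and 561 and 376 (UNC0379), all of which overlap the range of NC.

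Bcl2l2 lies on chromosome 14 (54883377 to 54888234, plus strand, mm10). Of its merged exons, 13.3% are shared on the same strand with the gene model Gm20521, so part of its reads cannot be assigned with certainty. Gm20521 itself was low and did not pass the test with DZNep (26 and 38 in NC, 31 and 37 with DZNep, log2 change 0.10). Among 12870 other genes with a mean value of at least 100, those whose 11 group means followed Bcl2l2 most closely were Usp46 (a deubiquitinase, Pearson r 0.961), Msi2 (an RNA-binding protein, 0.948) and Ddx6 (an RNA helicase, 0.944). These are descriptions over 11 points that share their libraries with the genes compared, and a search over so many genes yields high values of r.

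Bcl2l1, which encodes BCL-XL, moved the other way with DZNep. The NC libraries held 1464 and 1614 normalized counts and the DZNep libraries 1903 and 2457, the 2 highest values of the 22 libraries. The log2 change was 0.49 (SE 0.15, 95% interval 0.16 to 0.82, adjusted p 0.032 by limma), which is 1.41-fold, under the 2-fold limit. The change was 0.38 within number 1 and 0.61 within number 2. The limma adjusted p was 0.000299 with the replicate number as a block and 0.201 in a fit restricted to DZNep and NC. It also rose above 0.05 without DZNep replicate 2 and without either NC library. Leaving out 1 library unbalances the replicate numbers. The log2 change then ran from 0.31 (without DZNep replicate 2) to 0.68 (without DZNep replicate 1). The lowest group mean of Bcl2l1 was that with Valproate (1159 and 1340, log2 change -0.30, 95% interval -0.63 to 0.03), which did not pass the test. With the replicate number as a block, its adjusted p was under 0.05 by limma. The other 8 compounds lay between -0.21 (IOX1) and 0.18 (OICR).

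Mcl1, whose short-lived protein holds BAK1 in check, varied least. Its group means ran from 10685.5 (Chaetocin) to 13717.5 (DZNep), 1.28-fold from lowest to highest. In NC it was at 11619 and 11169, and with DZNep at 12502 and 14933, a log2 change of 0.26 (95% interval -0.01 to 0.54, adjusted p 0.159 by limma). With the replicate number as a block, the adjusted p of Mcl1 with DZNep was under 0.05 by limma. Over all 10 compounds the 95% intervals of Mcl1 reached no lower than -0.37 and no higher than 0.54, so changes of 2-fold lay outside all of them.

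Bcl2 was near the bottom of the measured range, and the SE of its changes was 0.65, the largest of the 10 members. Its values were 22 and 34 in NC, 4 and 21 with DZNep, 12 and 14 with MS023 and 10 and 25 with Valproate. DZNep and MS023 were the compounds for which both libraries lay below both NC libraries. The log2 change was -1.44 with DZNep (95% interval -2.83 to -0.04, adjusted p 0.131 by limma, and -2.20 and -0.67 within the 2 replicate numbers) and -1.02 with MS023 (-2.42 to 0.38, 0.516). With the replicate number as a block, Bcl2 with DZNep was called by limma. On the scale used the change of such low values is understated. Exons of Bcl2 overlap the antisense transcript D630008O14Rik over 6.09% of their length.

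Bak1 encodes BAK, 1 of the 2 main pore-forming effectors, and it fell with both DZNep and Valproate. The value was 4100 and 4707 in NC, 2535 and 2894 with DZNep and 2198 and 2950 with Valproate, so the 4 libraries of these compounds were the lowest of all 22. Next in order of the group mean came Bromosporine (2961 and 3689) and OICR (3319 and 3822). The log2 change with Valproate was -0.79 (SE 0.19, 95% interval -1.19 to -0.38, adjusted p 0.0166 by limma), 1.72-fold lower. With DZNep it was -0.70 (SE 0.19, -1.10 to -0.29, adjusted p 0.0154 by limma), 1.62-fold lower. Neither reached 2-fold. Within replicate numbers 1 and 2 the changes were -0.90 and -0.67 with Valproate and -0.69 and -0.70 with DZNep. Both comparisons used the same NC libraries and are not independent of each other.

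Over 11 alternatives the limma adjusted p of Bak1 ran from 3.25e-05 to 0.0947 with DZNep and from 4.08e-05 to 0.163 with Valproate. With DZNep it was above 0.05 without DZNep replicate 1 (0.0915), without NC replicate 2 (0.0947) and in the fit restricted to DZNep and NC (0.0868). With Valproate it was above 0.05 without Valproate replicate 1 (0.159), without NC replicate 1 (0.0531) or replicate 2 (0.117), and in the fit restricted to Valproate and NC (0.163). Bromosporine (log2 change -0.41, 95% interval -0.81 to -0.00785, adjusted p 0.251 by limma) and OICR (-0.30, -0.71 to 0.10) did not pass the test. With the replicate number as a block, Bak1 with Bromosporine had an adjusted p under 0.05. In the other 6 groups Bak1 lay between -0.15 (CPTH2) and 0.00174 (IOX1). Bak1 is on chromosome 17 (27019810 to 27029009, minus strand), and 18.2% and 7.35% of its exons lie opposite exons of 2 gene models named Ggnbp1. Whether the libraries kept strand is not given in the sources used here. Ggnbp1 did not pass the test (339 and 286 in NC, 340 and 293 with DZNep, 344 and 188 with Valproate).

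The windows around the annotated starts of Bak1 and Bcl2l2, the 2 lower members that passed an adjusted p under 0.05 with DZNep, are shown. Which start the cells used was not measured, and the GENCODE model of Bak1 begins upstream of the RefSeq window, at 27029009. Each runs from 250 bases before to 50 bases after the RefSeq start on GRCm38.p6 (mm10), read 5′ to 3′ on the strand of the gene, and capitals mark a GC box.
Bcl2l2, chr14:54883175-54883474, plus strand: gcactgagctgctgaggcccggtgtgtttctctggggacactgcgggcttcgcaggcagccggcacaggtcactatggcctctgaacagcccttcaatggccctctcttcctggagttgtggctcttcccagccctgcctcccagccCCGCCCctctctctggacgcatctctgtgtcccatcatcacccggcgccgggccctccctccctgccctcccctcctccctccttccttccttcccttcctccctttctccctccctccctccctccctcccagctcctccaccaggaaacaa
Bak1, chr17:27028578-27028877, minus strand: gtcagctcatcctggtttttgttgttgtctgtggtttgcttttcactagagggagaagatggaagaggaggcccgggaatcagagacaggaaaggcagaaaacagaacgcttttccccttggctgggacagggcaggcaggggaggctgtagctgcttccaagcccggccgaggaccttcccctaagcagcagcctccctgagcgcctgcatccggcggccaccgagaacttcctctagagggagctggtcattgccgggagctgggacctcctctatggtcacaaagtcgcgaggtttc
Short motifs were searched on both strands, and matches of different motifs were allowed to overlap. The GC box was the letters GGGCGG, held by 35.7% of all 32851 windows of the table. The CCAAT box was held by 37.4% of windows under these 5 letters. The E box was CACGTG, held by 7.15% of windows. The TATA box was spelled TATAAA and held by 13.6% of windows. The Bcl2l2 window held 1 GC box and no match of the others, and the Bak1 window held no match of any. Windows were found for 9 of 10 members (15 windows), and 8 of the 15 held a GC box. The GC content was 65.3% for Bcl2l2 and 58.3% for Bak1, beside a median of 52.7% over all windows. A match is a description of letters and not a measured site.

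**Figure D4:**
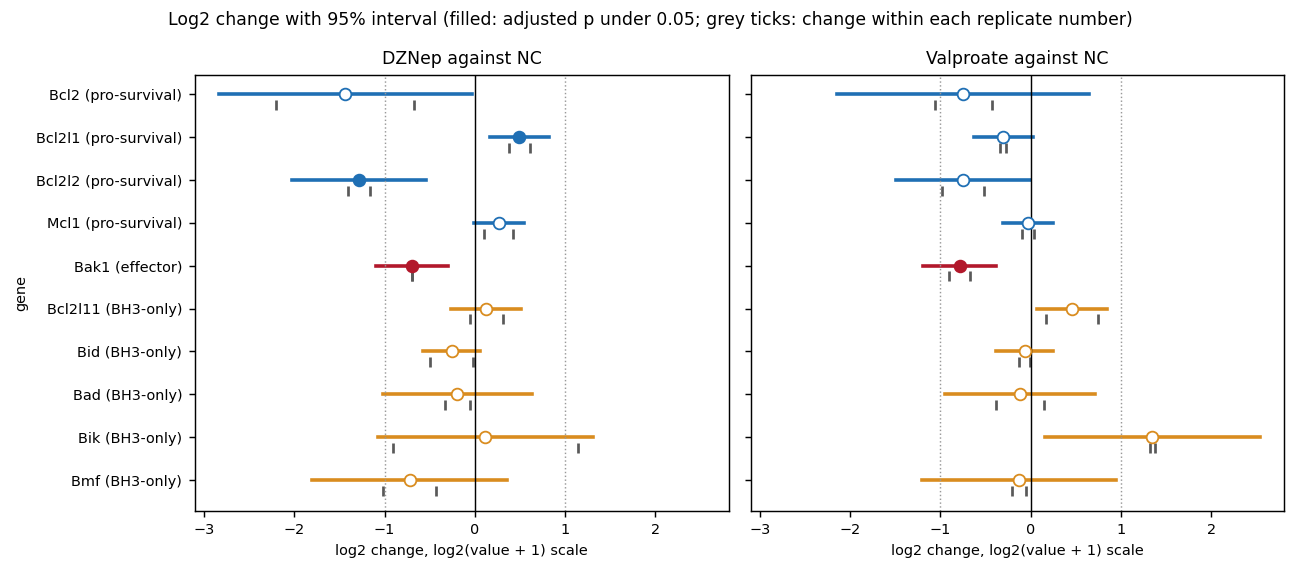
Log2 change of the 10 genes with DZNep (left) and Valproate (right) against NC, with 95% intervals from limma, filled points for an adjusted p under 0.05, dotted lines at a 2-fold change and grey ticks for the change within each replicate number. Bak1 lies below 0 in both panels (-0.70 and -0.79), while Bcl2l1 (0.49) and Bcl2l2 (-1.29) are filled with DZNep only, and whether the compounds differ was not tested.

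None of the 5 BH3-only genes passed the limma test without a replicate block with any of the 10 compounds. Of their 50 pairs of gene and compound, 3 had an unadjusted p under 0.05, a count with no share of all genes beside it. With the replicate number as a block, Bcl2l11 with Valproate and Bmf with DZNep had an adjusted p under 0.05 by limma. With the mean over the remaining groups as reference, Bcl2l11 and Bik with Valproate and Bid with DZNep had an adjusted p under 0.05, and Bid with DZNep also had one without DZNep replicate 1. Bcl2l11, which encodes BIM, was highest with Valproate, with 526 and 638 against 467 and 381 in NC. Both Valproate libraries lay above both NC libraries, with a log2 change of 0.46 (SE 0.18, 95% interval 0.07 to 0.84, adjusted p 0.134 by limma), and 0.17 and 0.74 within the 2 replicate numbers. With the other compounds Bcl2l11 lay between -0.29 (IOX1) and 0.13 (DZNep).

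Bik, another sensor, had few reads and was likewise highest with Valproate, with 38 and 24 against 14 and 9 in NC. The log2 change of 1.35 (SE 0.55, 95% interval 0.16 to 2.54) had a limma adjusted p of 0.15, and was 1.38 and 1.32 within the 2 replicate numbers. It was called when the reference was the mean over the remaining groups in place of NC. With OICR, Bik was at 4 and 4, the lowest of all libraries, a log2 change of -1.29 (95% interval -2.49 to -0.10, adjusted p 0.408 by limma).

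Bid, which links death receptors to the mitochondrion once it is cut by caspase 8, was at 1325 and 1354 in NC. Its group mean was highest with Bromosporine (1610 and 1681, log2 change 0.30, 95% interval -0.02 to 0.61) and lowest with DZNep (1306 and 960, -0.26, -0.57 to 0.06). The DZNep value came mainly from replicate 2, with changes of -0.02 and -0.50 within the 2 numbers. Of the exons of Bid, 17.7% lie opposite those of Bcl2l13. That gene was lower with DZNep (2464 and 2273 in NC, 1364 and 1693 with DZNep, log2 change -0.64, adjusted p 0.0114 by limma).

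Bad, which is held inactive by phosphorylation, varied little between groups (group means 401.5 to 535.5) and much between replicates, at 382 and 537 in NC. Its F test over the 11 groups gave a limma adjusted p of 0.989, and 20.5% of its exons lie opposite those of Gpr137. Bmf, a sensor tied to the cytoskeleton, had 289 and 143 normalized counts in NC and 142 and 106 with DZNep, a log2 change of -0.72 (95% interval -1.80 to 0.35, adjusted p 0.318 by limma). With the replicate number as a block, the adjusted p of Bmf with DZNep was under 0.05. The SE of a change was 0.38 for Bad and 0.50 for Bmf, and over the 10 compounds the 95% intervals of Bad reached from -1.03 to 1.05.

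Taking the 10 members together, the median log2 change was -0.23 with DZNep and -0.12 with Valproate, beside -0.04 and -0.02 over all tested genes. It lay between -0.18 (OICR) and 0.08 (IOX1) for the other compounds.

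The other genes of the pathway were taken from lists of 64 genes, of which 59 were tested. With DZNep 9 of 59 were called (4 higher, 5 lower), which is 15.3% beside 11.4% of all genes. With Bromosporine 3 of 59 were called, all lower (5.08% beside 3.34%), and with Valproate 1 of 59, higher (1.69% beside 5.28%). With the other 7 compounds limma called 0 of 59, and the number with an unadjusted p under 0.05 ran from 0 (CPTH2) to 8 (MS023 and OICR).

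In the family itself, 11 of 15 listed relatives were tested. Bax, the second main effector, was higher with DZNep while Bak1 was lower. The NC values were 9268 and 11200 and the DZNep values 15887 and 21917, a log2 change of 0.87 (SE 0.17, 95% interval 0.52 to 1.23, adjusted p 0.00202 by limma), just under 2-fold. That adjusted p stayed under 0.05 in 10 of 11 alternatives (2.15e-05 to 0.0916) and was above it in the fit restricted to DZNep and NC. With Valproate the log2 change of Bax was 0.10 (95% interval -0.25 to 0.46).

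Pmaip1 (NOXA) and Bbc3 (PUMA) are BH3-only genes known as p53 targets. Pmaip1 rose with Valproate from 139 and 107 to 635 and 402 (log2 change 2.04, SE 0.32, adjusted p 0.00164 by limma). It was called in 10 of 11 alternatives (limma adjusted p 7.63e-05 to 0.0893), the exception being the fit restricted to Valproate and NC. With DZNep it was at 216 and 197 (log2 change 0.75, adjusted p 0.111 by limma) and with OICR at 58 and 70 (-0.93, adjusted p 0.276). Bbc3 had values of 1735 and 1387 in NC, of 2468 and 3718 with DZNep (0.96, adjusted p 0.0241 by limma) and of 2800 and 2433 with Valproate (0.75, adjusted p 0.117). The limma adjusted p of Bbc3 with DZNep ran from 0.00756 to 0.169 over 11 alternatives, and it was above 0.05 without DZNep replicate 2, without either NC library and in the fit restricted to DZNep and NC. Bnip3, which marks mitochondria for removal, was lower with DZNep (766 and 512 in NC, 255 and 160 with DZNep, log2 change -1.63, adjusted p 0.0146 by limma). Its call was lost without DZNep replicate 2, without NC replicate 1 and in the fit restricted to DZNep and NC (limma adjusted p 0.00544 to 0.134 over 11 alternatives).

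Downstream of the mitochondrion, 3 of 15 genes of the apoptosome and the caspases were called with DZNep, beside 11.4% of all tested genes. Casp9, the initiator caspase of the mitochondrial route, fell from 1427 and 1336 to 623 and 672 (log2 change -1.09, adjusted p 7.61e-05 by limma). Casp8, the initiator of the death receptor route, fell from 114 and 106 to 40 and 47 (-1.32, adjusted p 0.000213). Dffb, a nuclease that cuts DNA in dying cells, was higher, at 97 and 114 in NC and 247 and 193 with DZNep (1.05, adjusted p 0.0229), and was called under 5 of 11 alternatives, not without DZNep replicate 1 or either NC library. The Casp9 call was lost with the mean over the remaining groups as reference, where its fold was under 2, and that of Casp8 in the fit restricted to DZNep and NC. Of the 5 inhibitors of apoptosis tested, 0 were called by limma with any of the 10 compounds. An unadjusted p under 0.05 was found for 3 of the 50 pairs, again with no share of all genes beside it.

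Of the 9 tested genes of the death receptor route, 3 were called with DZNep, beside 11.4% of all tested genes. With Bromosporine 3 were called, beside 3.34%. Nothing about the route as a whole is read from so few genes. With DZNep, the adaptor Fadd was higher (123 and 190 in NC, 433 and 422 with DZNep, log2 change 1.48, adjusted p 0.00458 by limma), and the receptor Tnfrsf1b (919 and 623 in NC, 283 and 275 with DZNep, -1.44, adjusted p 0.00289) and the caspase 8 inhibitor Cflar (242 and 193, then 90 and 87, -1.28, adjusted p 0.0462) were lower. Cflar was called under 3 of 11 alternatives and under none that left out a library, and the Fadd call was lost without NC replicate 1. With Bromosporine, the receptors Tnfrsf1a (653 and 453 in NC, 180 and 147 with Bromosporine, -1.74, adjusted p 0.00251 by limma) and Tnfrsf1b (440 and 287 with Bromosporine, -1.09, adjusted p 0.0449) were lower. Fas, another death receptor, had a value of 21 in each NC library and was listed at 0 in the 2 Bromosporine libraries (adjusted p 0.0128 by limma), so no fold is given. Without any 1 of the 4 libraries compared, the calls of Fas and Tnfrsf1b with Bromosporine were lost. The Fas call was also lost with a pseudocount of 10 (limma adjusted p 0.122, range over 11 alternatives 0.000689 to 0.122), and the Tnfrsf1b call without the filter on low values (0.0536, range 0.000558 to 0.334), with the mean over the remaining groups as reference, where its fold was under 2, and, like that of Fas, in the fit restricted to Bromosporine and NC.

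Among regulators of the family, Fbxw7, part of a ubiquitin ligase that marks MCL1 for degradation, was higher with DZNep (1068 and 1365 in NC, 3200 and 2665 with DZNep, log2 change 1.27, adjusted p 0.00352 by limma). Trp73, a p53 relative, rose from 116 and 160 to 785 and 877 (2.60, adjusted p 0.000416). Fbxw7 and Trp73 were called under all 11 alternatives tried. Beside these results and those of the members, the fibroblast markers summed to 1669 and 1938 with DZNep, 1613 and 1476 with Valproate and 745 and 1476 in NC. Of the 7 tested, 2 were called higher by limma with each of the 2 compounds, beside 11.4% (DZNep) and 5.28% (Valproate) of all genes called in either direction. Thy1 was higher with both (12 and 11 in NC, 66 and 64 with DZNep, 358 and 303 with Valproate). Col1a1 stood at 24 and 24 in NC, 327 and 228 with DZNep and 14 and 25 with Valproate. Pdgfrb was lower with both (217 and 108 in NC, 57 and 64 with DZNep, 59 and 54 with Valproate). Col3a1 stood at 4 and 743 in the 2 NC libraries, so the sums depend in part on such unsteady values. The stem cell markers summed to 307233 and 296802 with DZNep, 271848 and 277227 with Valproate and 248087 and 240917 in NC. The single stem cell markers moved both ways with DZNep. Nanog went from 44793 and 59405 in NC to 92251 and 123367, and Zfp42 from 16469 and 20763 to 49540 and 33822. Tdgf1 went from 25722 and 15640 to 11541 and 8477, and Dppa5a from 41903 and 39262 to 28606 and 30833. The primitive endoderm markers summed to 11282 and 7247 with DZNep, 3897 and 4404 with Valproate, 4091 and 3983 with Bromosporine and 8005 and 6403 in NC. Sparc made up most of each of these sums (7573 and 6058 in NC, 3568 and 3928 with Valproate). The other genes of that list moved both ways with Valproate. Gata4 went from 156 and 154 to 97 and 108, and Dab2 from 41 and 46 to 70 and 132. For the markers of early differentiation the sums were 3391 and 3064 with DZNep, 5453 and 6056 with Valproate, 5835 and 4595 with Bromosporine and 4347 and 3454 in NC. Tfap2c made up most of each of these sums (3379 and 2712 in NC, 4958 and 5480 with Valproate). Here too the other genes moved both ways with Valproate. Sox1 went from 742 and 514 to 252 and 283, and Cdx2 from 2 and 8 to 22 and 19. With Bromosporine the stem cell markers summed to 271589 and 256752 and the fibroblast markers to 740 and 657. Blood markers summed to at most 716 in any library. The part of these lists in the results was not tested.

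Much of the spread within groups followed the replicate number. Bcl2, Bcl2l1 and Bak1 were higher in replicate 2 than in replicate 1 in 11 of 11 groups, while Bcl2l2 and Bmf were lower in replicate 2 in 11 of 11. In a limma fit with group and number, 7 of 10 members differed between the numbers at an adjusted p under 0.05, beside 52.6% of all genes. What the number stands for is not given in the labels.

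**Figure D5:**
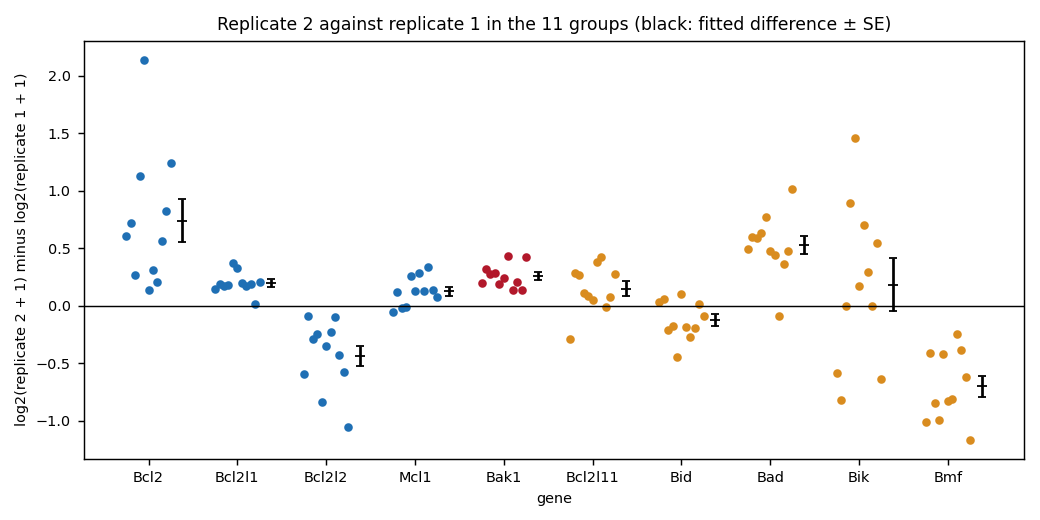
Difference between replicate 2 and replicate 1 on the log2(value + 1) scale for each of the 10 genes, with 1 point per group (11 points) and the fitted difference ± SE in black. All 11 points of Bak1 lie above 0 and all 11 of Bmf below it, with fitted differences of 0.26 and -0.70.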

How the data were processed

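RNA-seq libraries of E14 cells (22, in 11 groups of 2, grouped by title) were analysed. The deposited values are scores, here read counts per gene that the authors normalized and rounded to whole numbers. The submitters' processing notes name Bowtie2 2.2.5, RSEM and mm10, and the study's methods, which do not mention the compounds, describe EDASeq normalization at its full setting, which gives all libraries 1 distribution. Totals lay between 38403767 and 38419709 and do not show depth, so no detection limit is given, and a change shared by most genes would be removed. The authors' DESeq2 needs raw counts and was not run. A second deposited table held the authors' group means, a score as well, and differed from the means of the first by 0.

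Values were analysed as log2(value + 1) with limma 3.58.1 in R 4.3.3 (11 group means, trended variance, 11 residual degrees of freedom), with Benjamini-Hochberg adjustment within each contrast over the 17275 genes that reached 10 in at least 2 libraries. P-values are two-sided. The fit was tested on simulated data with no difference between replicate numbers and with planted changes larger than those of the members that passed. How it behaves with such a difference or with smaller changes was not tested. Alternatives were a pseudocount of 10, no filter, robust moderation, median-ratio rescaling, the replicate number as a block, the mean of the other groups as reference, a fit restricted to 1 compound and NC, and leaving out each library compared. Members and lists were chosen with earlier results of these data known. Named were all members, list genes called with at least 1 compound, Bax, Bbc3 and Pmaip1, and the 3 genes with the group means most correlated with a called member. Sequences are from RefSeq (GRCm38.p6). Python 3.11.15 and matplotlib 3.10.9 were used for annotation and plots.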

Additional observations from a re-analysis of the deposited data

How the results depend on the processing

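The numbers in the labels give no shared culture or day, and the samples were not treated as paired in the main fit. The replicate block fits 1 difference between the numbers over all 11 groups, not over the 2 pairs of a comparison. In each comparison, deviations from the group means correlated with those of NC by 0.0836 (DZNep) to 0.183 (Valproate). These correlations do not show that the number had no effect, since 52.6% of all genes differed between the numbers. That difference stayed in the residual spread of the main fit, so its SEs, intervals and p-values include it. With the replicate block, 2 members were called with DZNep (Bcl2 and Bcl2l2) in place of 1, 6 in place of 3 had an adjusted p under 0.05 at any fold with DZNep (Bcl2, Mcl1 and Bmf in addition), 4 in place of 1 with Valproate (Bcl2l1, Bcl2l2 and Bcl2l11 in addition) and 1 in place of 0 with Bromosporine (Bak1), and 6 in place of 3 differed among the groups. Of the 59 pathway genes the block called 14 with DZNep, 7 with Valproate, 1 with IOX1 and 1 with MS023. The shares of all tested genes under the block and the other alternatives are not given here. These counts are therefore not read as results about the members or the lists. Of the 22 libraries, 20 correlated best, outside their group, with a library of their own number. In fits restricted to 1 compound and NC, 0 members were called with DZNep, 0 had an adjusted p under 0.05 with DZNep or Valproate, and of the pathway genes 4 were called with DZNep, 0 with Valproate and 0 with Bromosporine, in a design with fewer samples. Against the mean of the other groups, 1 member was called with Valproate (Bik) and 4 had an adjusted p under 0.05, and pathway calls were 3 for Valproate, 2 for MS023 and 1 for OICR. Robust moderation gave 2 pathway calls with Valproate. The causes of these differences were not tested. Leaving out 1 library gave 0 to 1 members called and 1 to 3 at an adjusted p under 0.05 with DZNep, and 0 to 1 at an adjusted p under 0.05 with Valproate. The call with DZNep was lost without NC replicate 1, and without DZNep replicate 2 the member called was Bcl2. Pathway calls then ran from 5 (without NC replicate 1) to 11 with DZNep, from 1 to 4 with Valproate (4 without Valproate replicate 1, 2 without NC replicate 2) and were 1 with Bromosporine whichever library was left out. A lone library is then assumed to vary like the other groups. Leaving out 1 library also unbalances the replicate numbers, so part of the difference between the numbers enters the change. The 4 member changes that passed an adjusted p under 0.05 kept their sign under these alternatives, as did the 15 changes of pathway genes recomputed under them. For the members this was largely fixed in advance, since both libraries of the compound lay on 1 side of both NC libraries. Leaving out 1 library could then not turn the sign, and several alternatives leave the log2 change itself unaltered. Of the 100 pairs of member and compound, 52 turned their sign under at least 1 alternative, all of them pairs that had not passed. No conclusion is drawn from these signs. The depth of the libraries is unknown and limits most the low genes Bcl2 and Bik.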

Other observations

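Beyond the genes described above, some genes of the pathway lists had an adjusted p under 0.05 by limma at less than 2-fold and are named here after their values were seen. With DZNep these were Apaf1, the scaffold of the apoptosome (log2 change 0.56, adjusted p 0.0234 by limma), Diablo, which relieves the inhibitors of apoptosis (0.42, adjusted p 0.0259), the inhibitor of apoptosis Birc3 (-0.69, adjusted p 0.0115), the MCL1 ubiquitin ligase Huwe1 (-0.50, adjusted p 0.0183) and Dynll1, a dynein light chain (0.56, adjusted p 0.0263). With Bromosporine, Bnip3l, a relative of Bnip3, was higher (0.73, adjusted p 0.00624). The adaptor Tradd was higher with Bromosporine (0.83, adjusted p 0.0153) and with Valproate (0.63, adjusted p 0.0351), and Casp8 was lower with Valproate (-0.63, adjusted p 0.0384). These changes were not recomputed under the alternatives.

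The difference between replicate 2 and replicate 1, fitted over the 11 groups, was 0.74 (SE 0.19) for Bcl2, 0.53 (SE 0.08) for Bad, 0.26 (SE 0.03) for Bak1, 0.20 (SE 0.03) for Bcl2l1 and 0.12 (SE 0.04) for Mcl1. It was -0.44 (SE 0.09) for Bcl2l2 and -0.70 (SE 0.09) for Bmf. The limma adjusted p of these 7 lay between 6.84e-05 (Bmf) and 0.0202 (Mcl1). Bid (adjusted p 0.0509), Bcl2l11 (0.0611) and Bik (0.531) did not pass. Each number held 1 library of each group, so the number is balanced over the comparisons with NC.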
